A study of Mus musculus with 12 samples.

Results

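The genes described are the nuclear-encoded subunits of oxidative phosphorylation and their closest namesakes, chosen by symbol alone, as every row of the count table beginning with Nduf, Uqcr, Atp5 or Cox4 to Cox8, together with Sdha, Sdhb, Sdhc and Sdhd. There were 92 such rows among 24062 gene symbols, and 89 had 10 or more counts in at least 3 of the 12 libraries, as did 15842 genes in all. By role they comprised 36 genes of complex I, 7 complex I assembly factors (Ndufaf1 to Ndufaf7), 4 of complex II, 8 of complex III, 20 of complex IV and 15 of complex V. The other 2, Atp5s and Atp5sl, carry the Atp5 name but are not structural subunits of the enzyme. The 3 genes that did not pass were Ndufs5, Cox8c and Cox7b2. Ndufs5 was listed at 0 in every library, and whether this reflects its expression or the counting was not tested. Cox8c had 1 count in total, and Cox7b2 at most 23 counts in a library.

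The study sequenced polyadenylated RNA from whole hearts of mice with altered Lemd2, which encodes an inner nuclear membrane protein, with 3 mice in each of 4 groups. Adult hearts were taken at 2 months from wild-type (WT) mice and from KI/KI mice, homozygous in every cell for Lemd2 c.T38>G. Hearts at postnatal day 1 (P1) came from floxed mice, with loxP sites around exon 1 of Lemd2 and no Cre, and from cKO mice, which carry the same floxed alleles and Myh6-Cre. Myh6 drives Cre in cardiomyocytes, so fibroblasts, endothelial cells and other heart cells of cKO mice keep Lemd2. Both alleles were made in B6C3F1 zygotes, and founders were crossed to C57BL/6N mice. Adult WT hearts have no loxP sites, so age, the floxed allele and any difference in handling of the cohorts cannot be told apart where WT is compared with floxed.

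Oxidative phosphorylation passes electrons from NADH through complex I, or from succinate through complex II, to ubiquinone, then through complex III and cytochrome c to complex IV, which reduces oxygen. Complexes I, III and IV pump protons, and complex V, the ATP synthase, uses the returning protons to make ATP. The heart relies on this system for most of its ATP, and after birth cardiomyocytes turn from glycolysis towards fatty acid oxidation. The mitochondrial genome encodes further subunits of complexes I, III, IV and V, none of whose 13 symbols were among the rows used here.

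Library totals were 37063669 to 44789753 counts. The 92 genes took between 3.92 and 4.19% of all counts in WT hearts, 3.24 and 4.01% in KI/KI, 3.12 and 3.18% in floxed and 2.48 and 2.91% in cKO. Lemd2 was at 31.9 to 34.8 CPM (counts scaled to a normalized library size) in WT, 24.8 to 25.6 in KI/KI, 24.4 to 25.3 in floxed and 6.63 to 13.1 in cKO hearts. All 12 cardiomyocyte markers were tested in each comparison, and their summed level was the highest of the 9 cell type lists in every group. Some libraries stood apart. The 4 Y-linked genes summed to 0.080 CPM in cKO 4, against 222 to 375 CPM in the other 11 hearts. Lung epithelium markers summed to 100.04 CPM in WT 3, and fibroblast markers to 4302 CPM in KI/KI 5 against at most 2739 in the other adult hearts.

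In adult WT hearts most of the oxidative phosphorylation genes were higher than in P1 floxed hearts. Of 89 genes, 80 were higher and 3 lower at an adjusted p under 0.05 (edgeR quasi-likelihood test, Benjamini-Hochberg over 15267 genes), where 31.3% of all genes tested were higher and 33.2% lower. With a fold change above 2 required as well, 28 were higher and 2 lower, against 13.3% and 13.9% of all genes. The median log2 fold change of the 89 genes was 0.89, a 1.85-fold difference, and that of all genes tested was -0.04. In 81 genes every WT heart lay above every floxed heart and in 4 below. Of all 15267 genes, 5220 lay above and 5605 below by that measure, so separate groups were common. All libraries were scaled by edgeR's TMM factors unless stated, and CPM values are over the 12 hearts.

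Complex I, which oxidizes NADH, had 34 of 35 tested subunits higher, and their median was 0.96 on the log2 scale. Each of the 7 catalytic core subunits rose, and so did 27 of 28 accessory subunits, the exception being Ndufc2 (log2 fold change 0.18, adjusted p = 0.133 by edgeR). Ndufs7, the subunit that holds the last iron-sulfur cluster before ubiquinone, was at 268, 256 and 217 CPM in WT hearts and at 83.4, 81.4 and 84.5 CPM in floxed hearts. Every WT heart lay far above every floxed heart, and the log2 fold change was 1.56 (standard error, SE, 0.09; edgeR adjusted p = 3.82e-06), the largest of the complex. Ndufv1, which binds NADH, was at 822, 830 and 731 CPM in WT and at 427, 420 and 436 CPM in floxed hearts. The groups were separate, with a log2 fold change of 0.89 (SE 0.08, adjusted p = 3.00e-05). Among the assembly factors 5 of 7 rose, with a median of 0.57, and Ndufaf4 (0.14) and Ndufaf6 (0.31) did not pass the test.

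All 4 subunits of complex II, succinate dehydrogenase, rose, with log2 fold changes from 0.36 for the membrane anchor Sdhd to 1.12 for the other anchor, Sdhc. Sdha, the flavoprotein that oxidizes succinate, was at 2217, 2353 and 2073 CPM in WT and at 1122, 1190 and 1205 CPM in floxed hearts, a log2 fold change of 0.91. All 8 subunits of complex III with a Uqcr name rose as well, from 0.28 for Uqcrh to 1.31 for Uqcrq. The core protein Uqcrc1 was at 1325, 1344 and 1159 CPM in WT hearts and 504, 497 and 583 CPM in floxed hearts, and the Rieske iron-sulfur protein Uqcrfs1 had a log2 fold change of 1.04. In neither complex did any WT heart overlap a floxed heart, as was also so for most genes of this comparison.

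Complex V had 14 of 15 genes higher and a median change of 0.70 on the log2 scale. Its catalytic subunit Atp5b had the highest level per kb of exon of all 91 genes with a length, 3237 ± 190 CPM per kb in WT and 2182 ± 33.8 in floxed hearts (SD, n = 3). It rose by a log2 fold change of 0.56 (SE 0.09, adjusted p = 0.000665), while Atp5e, the small epsilon subunit of the same catalytic head, rose by 1.19. Atp5l was not called, at -0.41 (adjusted p = 0.070), and its row held 50 to 147 counts in each of the 12 libraries. Of its 75-base windows, the read length used, 76.0% also occur in 10 other annotated genes, so its counts are uncertain.

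Complex IV, cytochrome c oxidase, was the complex in which genes went both ways: 14 of 18 rose, and Cox6a1, Cox6b2 and Cox8a fell. Its largest differences were in subunits that exist as paralogous isoforms, one found in heart and skeletal muscle and one found in most tissues. Cox7a1, the muscle isoform of subunit 7a, was at 479.8, 488 and 395 CPM in WT hearts and at 49.4, 48.8 and 59.7 CPM in floxed hearts. Its log2 fold change was 3.10 (SE 0.12, adjusted p = 1.03e-06), an 8.59-fold difference and the largest of all 89 genes. The widespread isoform Cox7a2 was at 333, 309 and 270.1 CPM in WT and 268, 256 and 269 CPM in floxed hearts. These groups nearly touched, and the log2 fold change of 0.20 did not pass the test (adjusted p = 0.073).

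Subunit 6a showed opposite changes of its isoforms. Cox6a2, the muscle isoform, was at 937, 995 and 789.7 CPM in WT hearts and at 206, 203 and 214 CPM in floxed hearts, a log2 fold change of 2.12 (SE 0.10, adjusted p = 1.87e-06). Cox6a1, the widespread isoform, was at 54.2, 47.3 and 49.0 CPM in WT and at 138, 151 and 163 CPM in floxed hearts, a log2 fold change of -1.59 (SE 0.09, adjusted p = 3.95e-06). Each isoform separated the groups completely, in opposite directions. The exons of Cox6a2 overlap those of Itgad on the other strand in GENCODE vM21, and whether the authors' counting used strand is not given in the sources used here.

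Subunit 8 behaved likewise. Cox8b, the muscle isoform, was at 246, 254 and 217 CPM in WT and at 48.6, 42.3 and 53.6 CPM in floxed hearts, with a log2 fold change of 2.30 (SE 0.11, adjusted p = 1.95e-06). Cox8a, the widespread isoform, was at 80.7, 75.03 and 69.8 CPM in WT and at 128, 133 and 142 CPM in floxed hearts, with a log2 fold change of -0.84 (SE 0.08, adjusted p = 4.17e-05). The third gene that fell, Cox6b2, is known as the testis isoform of subunit 6b. It was low in all hearts, at 0.58 to 1.25 CPM in WT and 1.70 to 2.73 CPM in floxed, and its counterpart Cox6b1 rose by a log2 fold change of 0.38.

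**Figure D1:**
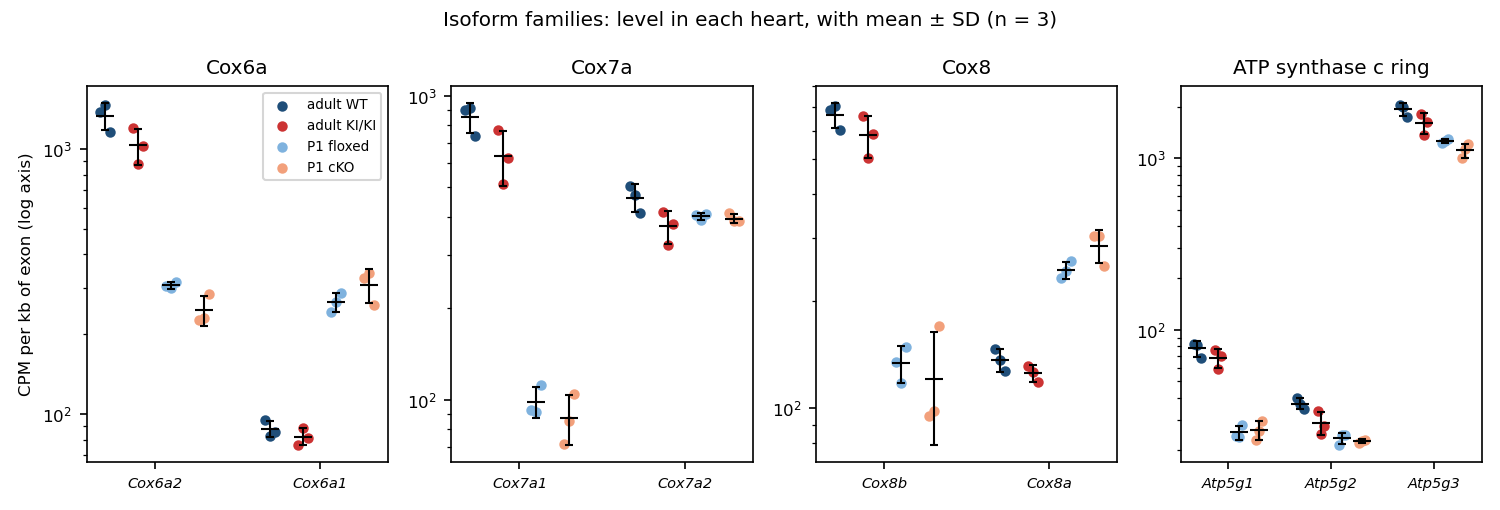
Level of paralogous isoforms in each heart, in CPM per kb of exon on a log axis, for Cox6a, Cox7a, Cox8 and the ATP synthase c ring; points are hearts, bars mean ± SD (n = 3). Cox6a2, Cox7a1 and Cox8b are higher in the adult hearts than in the P1 hearts, Cox6a1 and Cox8a lower.

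Shares within a family do not depend on how libraries are scaled. Counted per kb of exon, Cox6a2 made up 93.1 to 94.6% of Cox6a in WT hearts and 52.3 to 55.6% in floxed hearts. Cox7a1 made up 63.9 to 66.0% of Cox7a1 and Cox7a2 together in WT and 18.5 to 21.5% in floxed hearts, and Cox8b 82.3 to 83.8% of Cox8a and Cox8b in WT and 32.7 to 36.8% in floxed. In all 3 families the muscle isoform took the larger share in every adult heart, and it took the smaller share in floxed hearts for Cox7a and Cox8. The 3 Atp5g genes encode the same mature c subunit with different import sequences. Atp5g1 rose by a log2 fold change of 1.62 (3.07-fold), more than Atp5g2 (0.67) and Atp5g3 (0.61), yet it made up 3.72 to 3.88% of the 3 genes in WT and 1.81 to 2.08% in floxed hearts. Exon lengths are those of GENCODE vM21, 4912 bases for Atp5g1 against 731 for Atp5g2 and 724 for Atp5g3. The small share of Atp5g1 therefore depends on the length used, while the direction of its change between groups does not. Of the 75-base windows, 35.8% of those of Atp5g2 and 7.3% of those of Atp5g1 are shared with other genes.

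The stretch of 250 bases before the RefSeq start is shown for 5 of these isoform genes, because Cox7a1 and Cox8b differ in it from Cox7a2 and Cox8a in the number of CG pairs and Cox6a1 holds letters of the NRF1 motif. Sequences are from RefSeq on GRCm38.p6, 5′ to 3′ on the gene's strand, with CG pairs in capitals. Cox7a1 lies at chr7:30183921-30184170 on the plus strand, and the others on the minus strand, Cox7a2 at chr9:79759854-79760103, Cox8b at chr7:140900447-140900696, Cox8a at chr19:7217617-7217866 and Cox6a1 at chr5:115348959-115349208.
Cox7a1: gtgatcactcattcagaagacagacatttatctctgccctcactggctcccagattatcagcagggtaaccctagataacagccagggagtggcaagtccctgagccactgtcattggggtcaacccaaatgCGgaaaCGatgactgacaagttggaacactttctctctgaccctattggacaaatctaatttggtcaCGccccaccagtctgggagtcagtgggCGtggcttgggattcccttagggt
Cox7a2: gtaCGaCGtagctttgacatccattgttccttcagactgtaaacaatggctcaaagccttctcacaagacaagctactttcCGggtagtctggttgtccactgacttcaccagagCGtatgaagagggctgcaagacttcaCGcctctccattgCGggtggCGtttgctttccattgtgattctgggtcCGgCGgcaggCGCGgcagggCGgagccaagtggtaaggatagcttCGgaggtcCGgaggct
Cox8b: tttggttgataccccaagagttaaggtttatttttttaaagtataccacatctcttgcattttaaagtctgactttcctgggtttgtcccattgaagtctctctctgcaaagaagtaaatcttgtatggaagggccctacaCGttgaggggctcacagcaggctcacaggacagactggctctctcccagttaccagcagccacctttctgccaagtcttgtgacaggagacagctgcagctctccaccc
Cox8a: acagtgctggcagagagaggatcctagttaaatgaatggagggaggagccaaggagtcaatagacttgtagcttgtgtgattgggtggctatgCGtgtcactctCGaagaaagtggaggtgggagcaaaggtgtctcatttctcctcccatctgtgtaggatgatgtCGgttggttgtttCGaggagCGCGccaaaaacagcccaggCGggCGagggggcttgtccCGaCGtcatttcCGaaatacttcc
Cox6a1: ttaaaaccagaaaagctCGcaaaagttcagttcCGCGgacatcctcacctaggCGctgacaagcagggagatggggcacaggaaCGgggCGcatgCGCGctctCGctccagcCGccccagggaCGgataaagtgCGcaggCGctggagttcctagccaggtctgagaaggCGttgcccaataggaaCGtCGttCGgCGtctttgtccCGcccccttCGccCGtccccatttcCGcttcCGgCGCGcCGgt

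Of these 5, Cox8b held 1 CG pair and Cox7a1 4, against 14 in Cox7a2, 11 in Cox8a and 26 in Cox6a1. Promoters were matched for 73 of the 92 genes, whose median was 14 CG pairs (range 1 to 35) against a median of 6 over 27025 genes. Cox6a2, the muscle isoform of subunit 6a, was not among the 73, so it could not be compared with Cox6a1. Cox8b had the fewest of the 73, and Cox7a1 and Ndufc2 shared the next place with 4 each. Windows from 250 bases before to 50 bases after each listed start were also searched on both strands for 5 sets of letters, none of which contains another. NRF1, a transcription factor of nuclear mitochondrial genes, is known to bind GCGCATGCG, found in 10 of the 73 genes (13.7%) and 1.95% of all genes. The letters AAGATGGCG of YY1 were in 7 (9.59%) against 1.64%, CCGGAAGTG of ETS factors such as GABP in 2 (2.74%) against 2.25%, TCAAGGTCA of estrogen-related receptors in 2 (2.74%) against 0.466%, and CTAAAAATA of MEF2 in 0 against 0.588%. Of the 5 genes shown, Cox6a1 held the NRF1 letters. These are matches of letters and not measured binding.

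The size of the adult difference depended on what the hearts were scaled to. With library totals in place of TMM factors the median of the 89 genes was 0.48 and that of all genes -0.45, with 71 higher and 8 lower where 18.3% and 53.5% of all genes were called. Scaled to the summed counts of the 12 cardiomyocyte markers, the median of the 89 genes was 0.061 and that of all genes -0.87, and 26 genes were higher and 25 lower where 10.1% and 69.6% of all genes were called. Relative to the median of all genes, the 89 genes lay 0.93 higher with TMM factors. A scaling moves all genes nearly alike, so this distance is fixed by construction across scalings and is no sign of stability. Cardiomyocyte markers themselves lay at a median of 0.93 with TMM factors, with 10 of 12 called higher, against 31.3% of all genes. In bulk tissue, fewer cells of a type and less RNA per cell cannot be told apart.

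**Figure D2:**
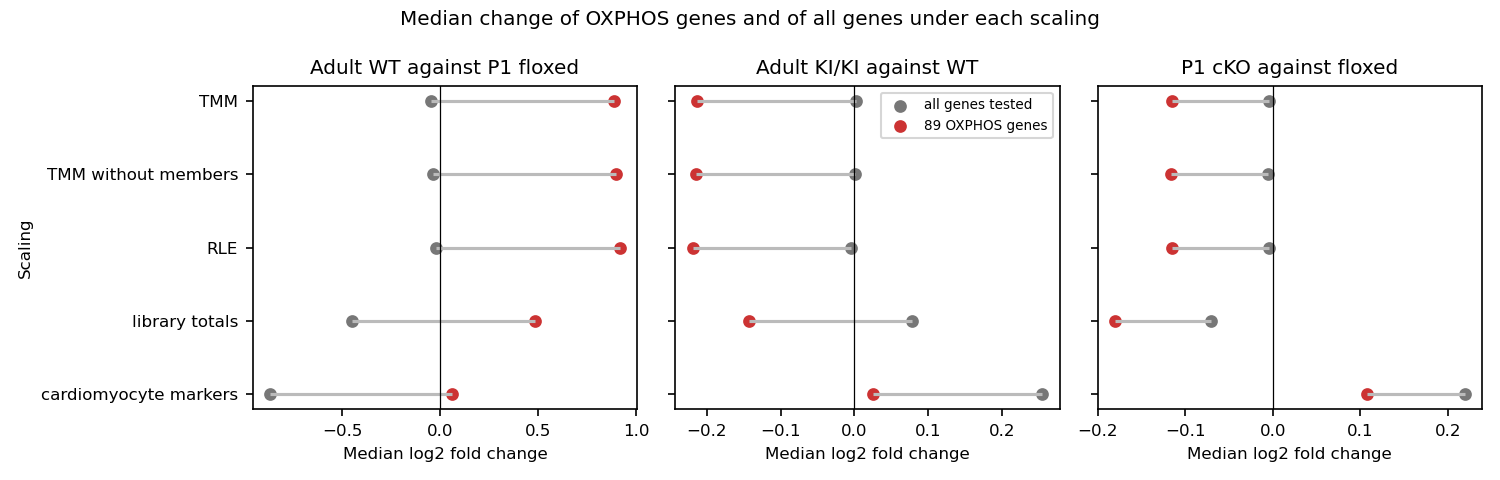
Median log2 fold change of the 89 oxidative phosphorylation genes (red) and of all genes tested (grey) under 5 scalings in each comparison. The distance between the points, 0.93, -0.22 and -0.11 with TMM factors, is fixed by construction because a scaling moves all genes nearly alike, while the red points lie near or on the other side of 0 when hearts are scaled to cardiomyocyte markers.

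The direction of the larger isoform differences did not depend on that choice, while that of several smaller ones did. Scaled to cardiomyocyte markers, log2 fold changes were 2.28 for Cox7a1, 1.48 for Cox8b, 1.29 for Cox6a2, 0.80 for Atp5g1 and 0.74 for Ndufs7, and -2.42 for Cox6a1 and -1.67 for Cox8a. Many other genes changed their call under it. Cox4i1, a nuclear-encoded subunit of complex IV, went from 0.80 to -0.03, and Cox7a2 from 0.20 to -0.63. Cox6b1 went from 0.38 to -0.45, Atp5g2 from 0.67 to -0.16 and Atp5g3 from 0.61 to -0.22. By complex, the medians under this scaling were 0.14 for complex I, 0.18 for II, 0.12 for III, -0.08 for IV and -0.13 for V.

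Summed CPM put the same differences on the level of whole hearts. The 92 genes summed to 47370 ± 3815 CPM in WT and 27417 ± 1046 in floxed hearts (SD, n = 3), and the 12 cardiomyocyte markers to 115577 ± 8147 and 65132 ± 5352. Their ratio was 0.405 to 0.413 in WT and 0.402 to 0.443 in floxed hearts, ranges that overlap. The summed level of complex I was 1.91 times as high in WT as in floxed hearts and that of complex V 1.56 times. Complexes II, III and IV lay in between, and the complex I assembly factors (1.36) and Atp5s with Atp5sl (1.35) lay lower. Other cell types moved as well, where 33.2% of all genes were lower and 31.3% higher. In WT, 4 of 7 fibroblast markers were lower and 1 higher, and 6 of 6 macrophage markers higher. Their part in the result was not tested.

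**Figure D3:**
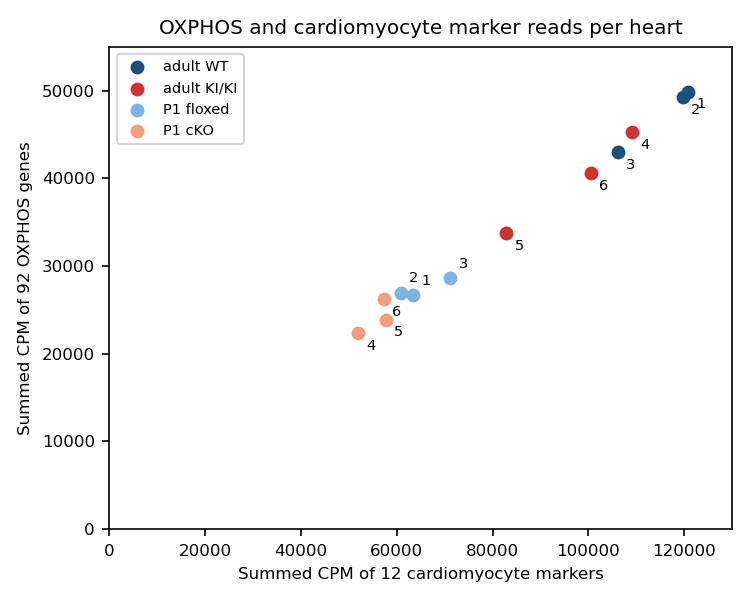
Summed CPM of the 92 oxidative phosphorylation genes against summed CPM of 12 cardiomyocyte markers, each point one heart with its replicate number. The adult WT hearts lie at 42980 to 49888 CPM, KI/KI hearts reach down to 33780, and the P1 hearts lie between 22325 and 28612.

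Genes that work beside the complexes moved in the same direction in adult hearts, where 31.3% of all genes were higher and 33.2% lower. All 18 citric acid cycle genes were higher (median 0.84), among them Ogdh at 2.07, and 18 of 21 electron carriers and transporters were higher and 2 lower, led by the mitochondrial creatine kinase Ckmt2 at 3.75. Cycs, the gene of cytochrome c, rose by a log2 fold change of 0.80 and Cyc1, the cytochrome of complex III, by 0.87. Assembly factors outside the symbol rule were higher in 29 of 35 and lower in 1, and mitochondrial ribosomal proteins higher in 62 of 77 and lower in 2 (median 0.56). Fatty acid oxidation genes were higher in 12 of 16 and lower in 2, and Cpt1a, the isoform of carnitine palmitoyltransferase that prevails in liver and the fetal heart, fell by 1.54. Glycolysis genes were higher in 9 of 16 and lower in 3.

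Among 22 regulators of mitochondrial biogenesis, 12 were higher and 5 lower, against 31.3% and 33.2% of all genes. The coactivator Perm1 rose by a log2 fold change of 2.08 and the nuclear receptors Esrra and Esrrg by 0.85 and 0.51. Nrf1 fell by 0.43 and Gabpa by 0.28. Ppargc1a, the coactivator PGC-1α, was at 277, 306 and 193 CPM in WT and 216, 188 and 257 CPM in floxed hearts. These ranges overlapped, and it was not called (log2 fold change 0.22, adjusted p = 0.312). The mitochondrial transcription factor Tfam rose by 0.27.

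**Figure D4:**
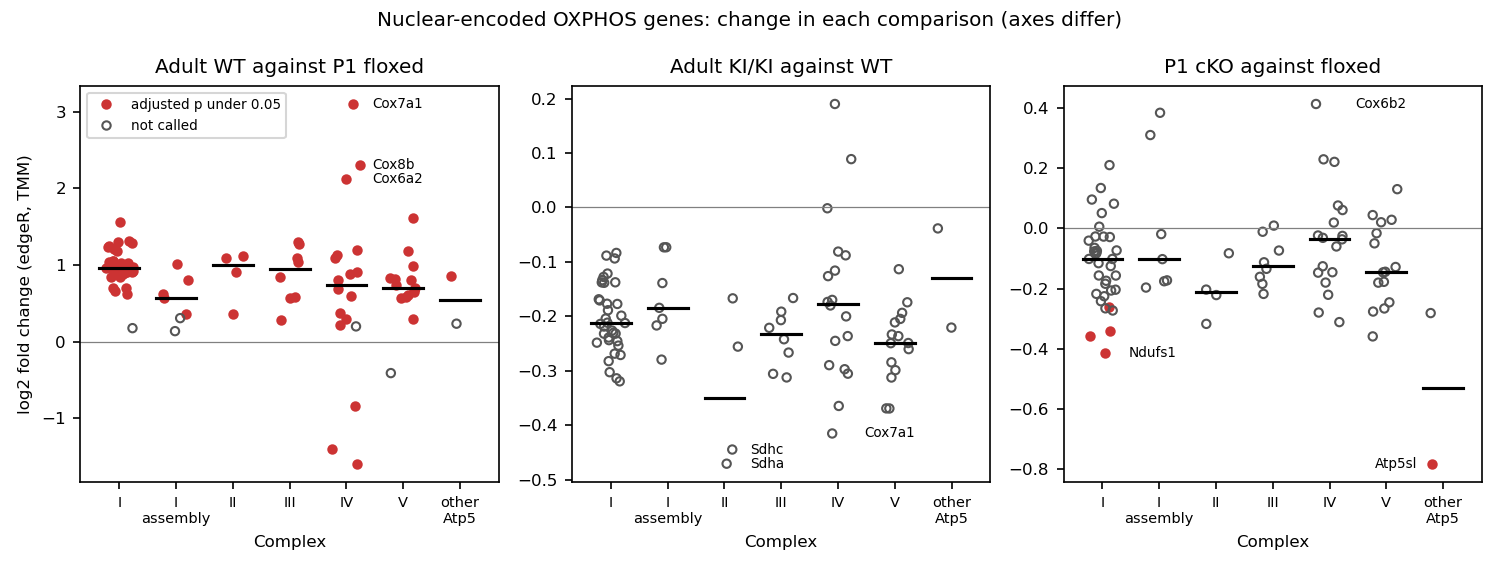
Log2 fold change (edgeR, TMM) of each of the 89 genes by complex in the 3 comparisons; filled points passed an adjusted p of 0.05, black lines are medians, and the vertical axes differ. In adult WT against P1 floxed hearts 80 points are called above 0 and 3 below, in KI/KI against WT none, and in cKO against floxed 5 below.

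In KI/KI hearts no oxidative phosphorylation gene passed the test, and nearly all had estimates below those of WT. None of 14670 genes tested had an adjusted p under 0.05 by edgeR (0.0% of all genes). At an unadjusted p under 0.05, 19 of the 89 genes were lower and 0 higher, where 7.18% of all genes were lower and 8.72% higher. By DESeq2, 1 of the 89 was lower, Sdhc, against 1.46% of all genes. The log2 fold change was below 0 in 87 of 89 genes, with a median of -0.21 beside 0.00 for all genes. Groups that did not overlap were seen in 8 genes, all lower in KI/KI, against 10.9% of all genes lower and 11.4% higher, so that this count was no larger a share than the background. This comparison and the previous one share the WT hearts.

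The genes with the largest estimates belonged to complex II. Sdha was at 1940, 1180 and 1654 CPM in KI/KI hearts against 2217, 2353 and 2073 CPM in WT, a log2 fold change of -0.47 (SE 0.18, edgeR adjusted p = 0.288). Sdhc was at 526, 378 and 432 CPM in KI/KI against 655, 631 and 539 CPM in WT, a log2 fold change of -0.44 (SE 0.13, edgeR adjusted p = 0.245, DESeq2 adjusted p = 0.0485). In both genes all KI/KI hearts were below all WT hearts, and in both the lowest was KI/KI 5. The other genes with separate groups were Ndufa13, Ndufaf3, Uqcr10 of complex III and Atp5d, Atp5e and Atp5g2 of complex V, with log2 fold changes from -0.37 to -0.22. Cox7a1 was at 411, 273 and 333 CPM in KI/KI hearts, against 395 to 488 in WT, a log2 fold change of -0.41 with overlapping groups. Without KI/KI 5 the log2 fold changes were -0.30 for Sdha, -0.34 for Sdhc and -0.28 for Cox7a1.

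The 2 genes above 0 were Ndufa4l2, a paralog of the complex IV subunit Ndufa4 known to rise in low oxygen (0.19, adjusted p = 0.369), and Cox6b2 (0.09). Isoform shares lay close to those of WT: Cox6a2 made up 90.8 to 94.0% of Cox6a, Cox7a1 61.3 to 65.0% of Cox7a and Cox8b 79.9 to 83.4% of Cox8 in KI/KI hearts, each range overlapping that of WT. Counted with the same exon lengths, on which its level depends, Atp5g1 made up 3.99 to 4.07% of the c ring genes. This was above each of the 3 WT values.

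One heart set much of the size of these estimates. The summed level of the 92 genes was 45271, 33780 and 40585 CPM in KI/KI 4, 5 and 6, and 42980 to 49888 CPM in WT. Without KI/KI 5 the median log2 fold change of the 89 genes was -0.12, without KI/KI 4 it was -0.31, and no gene was called in either case by edgeR. Without KI/KI 5, 6 of the 89 genes were lower at an unadjusted p under 0.05 and 0 higher, where 4.75% and 5.51% of all genes were. Of 12 cardiomyocyte markers 11 were below 0 (median -0.18), all 7 fibroblast markers were above 0 (median 0.59) and so were all 6 macrophage markers (median 0.38), none of them called. Fibroblast markers summed to 2312, 4302 and 2739 CPM in KI/KI 4, 5 and 6 and to 1922 to 2327 CPM in WT hearts, so that KI/KI 5 was the highest and KI/KI 4 lay within the WT range. Without KI/KI 5 the medians were -0.088 for cardiomyocyte, 0.28 for fibroblast and 0.32 for macrophage markers. Their part in the result was not tested. The ratio of the 92 genes to cardiomyocyte markers was 0.404 to 0.415 in KI/KI and 0.405 to 0.413 in WT hearts, and scaled to those markers the median was 0.025, on the other side of 0.

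Among the neighbouring pathways none of the genes passed the edgeR test in KI/KI hearts. As 0 of all 14670 genes tested did so, this is no result about these pathways. Medians of the log2 fold changes were -0.29 for fatty acid oxidation, -0.22 for the citric acid cycle, -0.19 for electron carriers, -0.12 for mitochondrial ribosomal proteins and -0.02 for glycolysis. Esrra was at 114, 96.9 and 113 CPM in KI/KI against 134, 130.4 and 119 CPM in WT hearts (log2 fold change -0.23, adjusted p = 0.265). Its groups were separate but the difference was not called.

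In cKO hearts 5 of the 89 genes were lower than in floxed hearts and 0 higher at an adjusted p under 0.05 (edgeR, 15392 genes), where 7.23% of all genes were lower and 9.15% higher. This share was near the background. With DESeq2, 12 of the 89 were lower against 11.0% of all genes. The median log2 fold change was -0.12 beside 0.00 for all genes, and 70 of 89 genes lay below 0. In 29 genes all cKO hearts were below all floxed hearts and in 3 all were above, where 19.2% of all genes were lower and 20.5% higher by that measure. This comparison shares the floxed hearts with the comparison of ages.

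Of the 5 genes, 4 were catalytic core subunits of complex I, out of 7 in the table, while 0 of 28 accessory subunits were called. The difference between these counts was not tested. Ndufs1, the largest core subunit, which carries iron-sulfur clusters, was at 458, 479.5 and 489 CPM in cKO hearts and at 609, 619 and 672 CPM in floxed hearts. The groups were well apart, with a log2 fold change of -0.41 (SE 0.07, adjusted p = 0.0161). Ndufv1 was at 299, 331 and 374 CPM in cKO and 427, 420 and 436 CPM in floxed hearts, a log2 fold change of -0.36 (SE 0.09, adjusted p = 0.0397). Ndufs7 had a log2 fold change of -0.34 (SE 0.09, adjusted p = 0.0415) and Ndufs3 of -0.26 (SE 0.07, adjusted p = 0.0439), both with separate groups. Ndufv2 (-0.20) and Ndufs8 (-0.03) were not called. Of the 75-base windows of Ndufs3, 28.2% are shared with other genes.

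The largest fall was in Atp5sl, a gene known, despite its name, to act in the assembly of the membrane arm of complex I. It was at 22.7, 26.2 and 28.9 CPM in cKO and at 46.4, 42.2 and 45.01 CPM in floxed hearts. Every cKO heart lay far below the floxed hearts, and the log2 fold change was -0.78 (SE 0.10, adjusted p = 0.00763), 1.72 times lower. It kept its call under the 17 refits tried for it, among them the leaving out of each heart. As its change was under 2-fold, it was not counted where a fold above 2 was required. Its symbol was not matched in GENCODE vM21, so its shared 75-base windows and overlapping genes were not checked. The assembly factors in the symbol rule were not called, and Ndufaf2 (0.38, adjusted p = 0.110) and Ndufaf5 (0.31, adjusted p = 0.207) were higher in every cKO heart than in any floxed heart. Outside the rule, the complex I assembly factor Foxred1 fell by 0.35 and the complex IV assembly factor Cox19 rose by 0.41.

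No gene of complexes II to V was called in cKO hearts by edgeR. Sdha was at 774, 952 and 1101 CPM in cKO and 1122, 1190 and 1205 CPM in floxed hearts (log2 fold change -0.32, adjusted p = 0.124), and all 4 complex II genes had every cKO heart below every floxed heart. Atp5b (-0.28), Atp5c1 (-0.27) and Atp5a1 (-0.25) of the catalytic head of complex V were separate in the same direction, and these 3 were among the 12 genes called by DESeq2. Cox6a2 was at 154, 156 and 193 CPM in cKO and 203 to 214 CPM in floxed hearts (-0.31, adjusted p = 0.068). Its share of Cox6a was 41.0, 40.3 and 52.5% in cKO and 52.3 to 55.6% in floxed hearts, where cKO 6 overlapped the controls and the other 2 did not. Cox8b made up 32.7 to 36.8% of Cox8 in floxed hearts. Its share was below that range in cKO 4 and cKO 5, at 23.8 and 24.5%, and above it in cKO 6, at 40.4%.

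The number of calls rested on single hearts. The share of all genes called is not given for the refits without a heart or with the Y-linked covariate, so these counts cannot be set against it. Without cKO 6, whose summed level of the 92 genes (26231 CPM) was the highest of the 3 and the nearest to the floxed hearts (26667 to 28612 CPM), 17 genes were lower and 2 higher. Without cKO 4 there were 2 lower, without cKO 5 there was 1, without floxed 1 or floxed 2 there was 1, and without floxed 3 there were 2, each time with Atp5sl among them. cKO 4 is the heart with almost no Y-linked reads (0.080 CPM), and with Y-linked level as a covariate 2 genes, Atp5sl and Ndufs1, were called. Of the 5, Ndufs1 lost its call without cKO 5, floxed 1 or floxed 2, while Ndufv1, Ndufs7 and Ndufs3 each lost theirs when any heart other than cKO 6 was left out.

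Cardiomyocyte markers fell in part in cKO hearts, with 4 of 12 called lower (median -0.25), against 7.23% of all genes. Called lower among them were Pln, the inhibitor of the sarcoplasmic calcium pump (-1.09), the calcium release channel Ryr2 (-0.82) and the giant sarcomere protein Ttn (-0.45). Of other cell types, 3 of 6 macrophage, 3 of 5 mural and 2 of 7 fibroblast markers were higher, against 9.15% of all genes. Scaled to cardiomyocyte markers, the median of the 89 genes was 0.11, on the other side of 0, with 9 higher and 1 lower (Atp5sl) where 23.0% and 2.72% of all genes were called. The part of cell composition in these differences was not tested. The ratio of the 92 genes to the cardiomyocyte markers was 0.414 to 0.457 in cKO and 0.402 to 0.443 in floxed hearts.

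Several regulators and genes of fuel pathways were called in cKO hearts, where 7.23% of all genes were lower and 9.15% higher. Ppargc1a was at 155, 135 and 136 CPM in cKO hearts and at 216, 188 and 257 CPM in floxed hearts, a log2 fold change of -0.63 (SE 0.13, adjusted p = 0.023). Esrrg fell by 0.46 and Gabpa by 0.38, so that 3 of 22 regulators were lower and 0 higher, and Tfam (-0.06) and Nrf1 (0.18) were not called. Fatty acid oxidation genes were lower in 6 of 16 (median -0.40), among them Hadh (-0.51), Eci2 (-0.45) and Echs1 (-0.33). Citric acid cycle genes were lower in 2 of 18, Suclg2 (-0.50) and Idh3g (-0.38). Of 21 electron carriers 1 was lower, Etfdh (-0.44), which passes electrons from fatty acid oxidation to ubiquinone. Both counts were near the share of all genes. Mitochondrial ribosomal proteins were higher in 1 of 77 and lower in 0, with a median of 0.01, and glycolysis genes were higher in 4 and lower in 2 of 16.

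Whether the mutant effect differed between the models was tested directly, as the KI/KI difference minus the cKO difference in one fit of the 12 hearts. No oxidative phosphorylation gene passed an adjusted p of 0.05 by edgeR, where 2.47% of all 15842 genes did. An unadjusted p under 0.05 was seen in 7 of the 89 genes, against 3187 of all 15842. The smallest adjusted p was that of Atp5sl, 0.086, with a difference of 0.55 (SE 0.16) on the log2 scale. By DESeq2 it was the 1 gene called, with an adjusted p of 0.0394, where 1336 of all 15842 genes were called. Allele, Cre and age all differ between the models.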

How the data were processed

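Hearts were sequenced in single reads of 75 cycles, 1 library per mouse and 3 mice per group. The authors removed adapters using Trim Galore, mapped to mm10 using STAR 2.7.2b, and deposited whole-number counts made with HTSeq and not normalized. Whether counting used strand is not given in the sources used here. Versions are from the submitters' processing notes.

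Differential expression was tested by edgeR 4.0.16 under R 4.3.3 (TMM, robust quasi-likelihood test, Benjamini-Hochberg over all genes tested). Each comparison used its own 6 libraries and genes with 10 or more counts in at least 3 of them. A gene was called at an adjusted p under 0.05. Standard errors are the log2 fold change over the root of the test statistic. Alternatives used DESeq2 1.42.0, limma 3.58.1, other scalings and filters, and left out each library. Scripts were tested on simulated data. At these depths counting error is small beside the spread between mice.

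Genes and lists were chosen with earlier results of these data known, and the lists come from general knowledge. Named are the 5 largest and 5 smallest called changes, core subunits, isoform families, genes called against their complex, up to 3 called genes per list and fixed regulators. Where no gene was called, those with separate groups were used. Beyond this rule, Ndufc2, Ndufaf4, Ndufaf6, Ndufaf2, Ndufaf5, Atp5e, Atp5l, Uqcrh and Uqcrq were chosen after their values were seen. Positions and exon lengths are from GENCODE vM21 (GRCm38), which had 91 of the 92 symbols, all but Atp5sl. A result that the rule would name is not reported here.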

Additional observations from a re-analysis of the deposited data

How the results depend on the processing

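In adult WT against P1 floxed hearts, leaving out any heart gave 75 to 83 genes higher, 3 lower and a median log2 fold change of 0.84 to 0.98. Scaling to cardiomyocyte markers gave 26 higher, 25 lower and a median of 0.061, library totals 8 lower and a median of 0.48, and a required fold above 2 gave 28 higher. Both groups are numbered 1 to 3, but hearts with the same number did not deviate together (Pearson r -0.13, -0.23 and -0.40 across genes), so the numbers do not pair the hearts. A fit with the replicate block gave 77 higher, 3 lower and a median of 0.89. No heart correlated best with its own number. The other comparisons share no replicate numbers.

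In KI/KI against WT, DESeq2 called 1 gene lower, scaling to cardiomyocyte markers gave a median of 0.025, and leaving out a heart gave 0 calls and medians from -0.31 to -0.12. In cKO against floxed, the 5 genes lower became 12 with DESeq2, 9 with library totals, 3 without a filter, 2 with all 12 libraries in one fit, 2 with the Y-linked covariate, 1 scaled to cardiomyocyte markers, 0 with a fold above 2 and 1 to 17 without one heart. The genes higher were 9 scaled to cardiomyocyte markers and 0 to 2 without one heart, and the median was 0.11 under that scaling and -0.19 to -0.05 without one heart. The interaction called 1 gene with DESeq2 and 0 to 2 without one heart. The cause of these changes was not tested. The share of all genes called at an adjusted p under 0.05 is not given for the refits without one heart. Also without that share are the fits without a filter, with all 12 libraries, with the Y-linked covariate and with the replicate block. For library totals it is missing in cKO against floxed. Counts from these fits cannot be set against the share of all genes. The Y-linked covariate was not run for the other comparisons, where it hardly varied.

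The adult differences of Cox7a1, Cox8b, Cox6a2, Atp5g1, Ndufs7, Cox6a1, Cox6b2 and Cox8a kept their direction and call under the 17 refits each, as did the cKO difference of Atp5sl. A required fold above 2 is not among the 17, and under it Cox8a and Atp5sl, each under 2-fold, were not counted. Among cKO calls, Ndufs1 was lost under 4 of 17, Ndufv1 under 8, and Ndufs7 and Ndufs3 under 9 each. With 3 hearts per group, differences of the size estimated in KI/KI hearts did not pass the test, which does not show that the groups were alike.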
